A study of Mus musculus with 4 samples.

Results

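Basement membrane collagens, nidogens and laminins were measured here as 10 genes, Col4a1, Col4a2, Col4a5, Col15a1, Col18a1, Nid1, Nid2, Lama4, Lamb2 and Lamc1. They were taken by gene symbol from the array annotation, which gave 10 of 27827 gene names and 17 of 41174 probes, with 1 to 4 probes per gene. The study compared mouse embryonic fibroblast (MEF) lines with and without Ip6k1, the gene of an enzyme that makes inositol pyrophosphates, in order to find processes that depend on it. It profiled 2 Ip6k1+/+ lines and 2 Ip6k1-/- lines, with 1 Agilent array of 1 colour per line. Every line was started from 1 embryo at E14, and all embryos came from heterozygous parents and shared a mother. Both genotypes carried SV40 large T antigen, which immortalised the cells, and both were harvested by trypsin while growing exponentially after freezing, thawing and a short culture, with no further treatment. The deletion was present in the whole embryo, so that each line stands for a separate embryo and for its own history of immortalisation. These cannot be told apart from genotype with 2 lines per group.

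Basement membranes are thin sheets of extracellular matrix that underlie epithelia and endothelia and surround muscle, fat and nerve cells. Type IV collagen trimers and laminin trimers, each built from 3 chains, form separate networks, and the nidogens bind laminin and type IV collagen and so connect them. Collagens XV and XVIII lie where the basement membrane meets the collagen fibres beneath, and fibroblasts make many of these proteins in culture.

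Values are given as log2 of the processed signal relative to the 75th percentile of the same array, so that 0 marks a probe brighter than 75% of the spots. That percentile was a signal of 607 to 746, the share of probes well above background was 52.0% to 55.5%, and all 4 arrays were on 1 slide. The deletion was visible in the targeted gene, since 2 of the 3 Ip6k1 probes were detected (well above background) in both Ip6k1+/+ lines and in neither Ip6k1-/- line, and the other was at 2.46 and 2.61 in the former against -1.98 and -1.22 in the latter. All 8 fibroblast markers were well above background in every line, and their summed linear signal was 342 and 357 times the 75th percentile with Ip6k1 and 329 and 286 times without it. The brightest of them, Vim and Col1a2, were saturated on 3 and 4 arrays, so this sum has little room to move. Of the unsaturated ones, Col3a1, a fibrillar collagen, was at 6.25 and 5.90 with Ip6k1 and 5.46 and 4.17 without it. Its difference of -1.26 was without overlap (unadjusted limma p of 0.0441, adjusted p of 0.994), and its part in the differences of the members was not tested. The list did not move 1 way, since 3 of its 6 tested markers had a mean difference below 0, against 45.9% of gene names. Besides Col3a1, these were Col1a1, at 5.02 and 5.54 against 5.18 and 4.17, and Pdgfra, at 0.21 and -2.19 against -1.08 and -2.33. Col1a1 and Pdgfra differed by -0.61 and -0.71 and overlapped. In all 3, Ip6k1-/- replicate 2 was the lowest line. Thy1 was at least 2-fold higher in mean, at 1.42 and 6.02 against 3.98 and 5.52, and overlapped. Twist1 and Prrx1 differed by 0.28 and 0.20. Of the endothelial markers, Pecam1, Cdh5, Tek, Tie1 and Emcn stayed undetected, that is, not well above background in any line. Vwf was detected in Ip6k1-/- replicate 1 only. Kdr was dim but detected in all 4 lines, at -3.65 and -3.99 against -2.94 and -1.59. Its difference of 1.56 was without overlap (unadjusted limma p of 0.0379, adjusted p of 0.994). The endothelial list summed to between 0.115 and 0.167 in Ip6k1+/+ lines and 0.237 and 0.416 in Ip6k1-/- lines. Like the sums of the other lists, these also count undetected markers, so they are partly signal near background. Kdr was the only endothelial marker detected in all 4 lines. The epithelial list summed to 0.758 and 3.15 against 0.514 and 1.59 with Cdh1 and Krt14 undetected, the macrophage list to 0.177 and 0.206 against 0.340 and 0.213 with 4 of its 5 markers undetected, and the Schwann and neural list to 0.149 and 0.174 against 0.164 and 0.141. The smooth muscle and pericyte list, with Des and Rgs5 undetected, summed to 184 and 68.2 against 115 and 85.4, so that the genotypes overlapped. In a culture of this kind, fewer cells of a type and less RNA per cell cannot be told apart.

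Of the 10 members, 9 were measured above background and 1, Col15a1, was not. The lead probe of each of the 9 was well above background in all 4 lines, where the lead probe is the tested probe of a gene with the highest mean over the arrays, and none was saturated. All 9 mean differences between Ip6k1-/- and Ip6k1+/+ lines were below 0, against 45.9% of the 14237 gene names with a lead probe. The members were chosen with earlier results of these data known, and all are read from the same 4 lines. These shares therefore describe the members and are not a test. Col4a5, Lamb2 and Lamc1 changed sign when certain single lines were left out. They ran from -2.00 for Lama4 to -0.11 for Lamc1, with a median of -0.81 on the log2 scale beside a median of 0.03 over all gene names. The median level of the 9 genes was 2.94 and 2.72 with Ip6k1 and 2.08 and 1.87 without it, so that the genotypes did not overlap on this summary.

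No member passed the test across all probes. With limma and Benjamini-Hochberg adjustment, 0 of 9 were called in either direction at the threshold of 0.05 on the adjusted p, where 0.00702% of gene names were called lower and 0% higher, and the adjusted p was 0.994 for each of the 9. At an unadjusted limma p under 0.05, 2 of 9 were lower, Col4a1 and Col4a2, against 2.4% of gene names, and 0 were higher, against 1.36%. By the 2-fold cutoff, 2 of 9 were lower, Col18a1 and Lama4, against 4.71% of gene names, and 0 of 9 were higher, against 1.81%. The values without Ip6k1 were both below the 2 values with it for 4 of 9 members, Col4a1, Col4a2, Nid1 and Nid2, against 13.5% of gene names, and above them for 0 of 9, against 17.9%. With this processing, no member was therefore both past the 2-fold cutoff and free of overlap between the genotypes. Nid1, free of overlap, missed the cutoff narrowly at -0.999 and passed it under 4 other ways of processing the arrays. An exact permutation test of 2 lines against 2 cannot give a two-sided p below 0.333, so none was used.

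**Figure D1:**
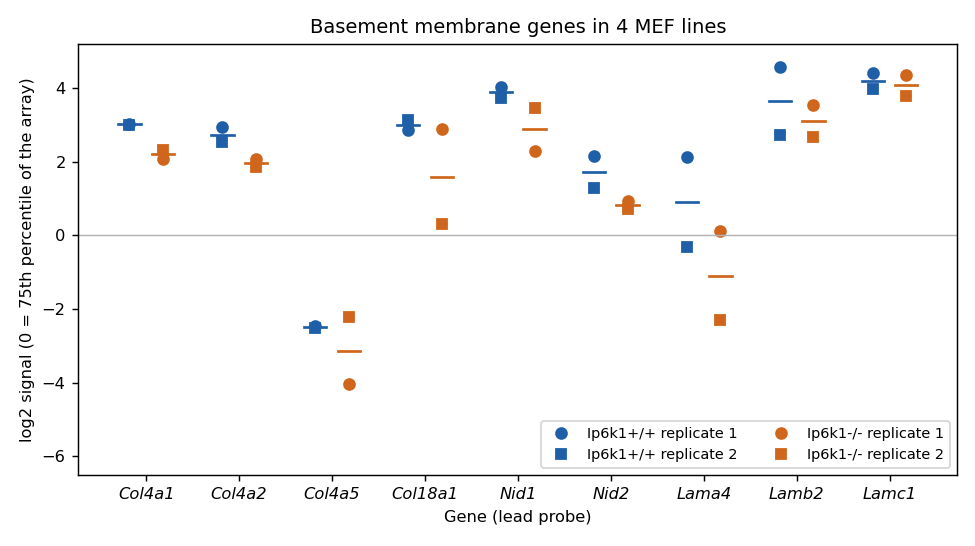
The log2 signal of the lead probe of each of the 9 measured genes (y axis, 0 is the 75th percentile of the array) is plotted for the 2 Ip6k1+/+ lines (blue) and the 2 Ip6k1-/- lines (orange), with circles for replicate 1, squares for replicate 2 and short lines for the genotype means. The genotypes are separate for Col4a1, Col4a2, Nid1 and Nid2, and overlap for the other genes.

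Col4a1 and Col4a2 encode the α1 and α2 chains of the type IV collagen trimer found in nearly all basement membranes, in which α1 chains pair with an α2 chain. The 2 genes lie head to head on mouse chromosome 8, and RefSeq places their starts on opposite strands so that the first 22 bases of each gene overlap in GRCm38.p6. That stretch is shown because both transcripts start in it, at chr8:11312801-11312830 on the plus strand, with the bases from the Col4a2 start at 11312805 to the Col4a1 start at 11312826 in capitals.
Col4a2 and Col4a1 starts: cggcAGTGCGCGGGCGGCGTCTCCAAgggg
A start of another gene on the other strand within 300 bases was found for 11.3% of the 27025 symbols in the RefSeq promoter table. That count took either orientation and did not require overlap, so it does not tell how common overlapping starts are.

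Col4a1 was at 3.02 and 3.005 in the Ip6k1+/+ lines and at 2.08 and 2.32 in the Ip6k1-/- lines on its lead probe (A_51_P124254, chr8:11199009-11199068 of mm9, minus strand). The Ip6k1+/+ lines were nearly equal and both Ip6k1-/- lines were lower. The means of 3.01 ± 0.01 and 2.20 ± 0.17 (SD, n = 2 each) differed by -0.81, with a standard error of 0.20 and a 95% interval from -1.33 to -0.29, which is a level 1.76-fold higher with Ip6k1 than without. The other Col4a1 probe (A_52_P518827, chr8:11199846-11201680, minus strand) gave 2.27 and 2.40 against 1.36 and 1.59. Its genotypes did not overlap either, and its difference was -0.86, with an interval from -1.41 to -0.32. The unadjusted limma p was 0.0106 for the lead probe and 0.0103 for its companion.

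Col4a2 was at 2.94 and 2.54 in the Ip6k1+/+ lines and at 2.08 and 1.87 in the Ip6k1-/- lines on its lead probe (A_51_P491350, chr8:11448840-11448899, plus strand). All 4 lines kept the genotypes apart, with a gap of 0.40 between the Ip6k1+/+ lines. The means were 2.74 ± 0.28 and 1.98 ± 0.15 (SD, n = 2 each), a difference of -0.76 with a standard error of 0.24 and a 95% interval from -1.38 to -0.14, or 1.69-fold. The other probe (A_52_P496142, chr8:11448180-11448239, plus strand) gave 1.52 and 0.90 against 0.50 and 0.24, again without overlap, and a difference of -0.84. The unadjusted limma p was 0.0254 and 0.0431 for the 2 probes. Leaving out any 1 line gave differences between -0.94 and -0.69 for Col4a1 and between -0.96 and -0.56 for Col4a2. The 2 chains thus differed between genotypes by nearly the same amount on 4 probes, each by less than 2-fold, and 6.38% and 7.06% of all gene names had a lower difference than Col4a1 and Col4a2.

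Since the 2 chains are related proteins, the sequences of their probes were compared with each other. No probe was aligned to the transcript of the other gene. The comparison therefore cannot tell whether a probe also binds RNA of the other chain. The probe of each gene that is not the lead probe is shown, with the longest run that both hold, 5 bases, in capitals.
Col4a1 A_52_P518827: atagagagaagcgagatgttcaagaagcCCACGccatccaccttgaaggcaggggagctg
Col4a2 A_52_P496142: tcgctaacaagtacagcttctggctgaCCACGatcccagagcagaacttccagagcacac
Over all 126 pairs of probes of different members, the longest identical run was 9 bases, between Lamb2 and Col18a1. The Col4a1 probe spans 1835 bases of the genome with 60 bases of sequence, so that it crosses at least 1 splice junction.

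Col4a5 encodes the α5 chain, which in other trimers joins α6 or the α3 and α4 chains, and is X-linked. It was dim, at -2.46 and -2.52 in the Ip6k1+/+ lines and at -4.04 and -2.21 in the Ip6k1-/- lines (A_51_P216005, chrX:138122995-138123054, plus strand). Replicate 1 of the Ip6k1-/- lines was the lowest of the 4 and replicate 2 the highest, so the genotypes overlapped. The difference of -0.63 had a standard error of 0.67 and a 95% interval from -2.37 to 1.1035, and without Ip6k1-/- replicate 1 it was 0.28. Col4a6 is the α6 chain gene, and its start lies 1343 bases from that of Col4a5. On its lead probe (A_52_P516409), Ip6k1-/- replicate 1 was also the lowest line, at -4.45, which is undetected, and replicate 2 was at 0.61. The Ip6k1+/+ lines were at 0.82 and -1.42, and so stood apart, unlike for Col4a5. On its probe that was well above background in all 4 lines (A_52_P447196), Ip6k1-/- replicate 1 was not the lowest, and the genotypes differed by 0.11. The remaining probe (A_51_P109326) was at -3.92 and -4.74 against -6.06 and -3.66, so that Ip6k1-/- replicate 1, undetected, was again the lowest line. Xist, the RNA of the inactive X chromosome, was detected in Ip6k1+/+ replicate 1 and Ip6k1-/- replicate 2 only, so that each genotype held lines that differed in this X-linked marker, and its part in the Col4a5 and Col4a6 values was not tested.

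Collagens XV and XVIII are the multiplexins, collagens with interrupted triple helices that carry sugar chains, and the end of collagen XVIII can be released as endostatin. Col15a1 was undetected in all 4 lines with either probe (A_51_P159792, chr4:47325103-47325162, and A_52_P170882, chr4:47325273-47325332), at between -7.42 and -5.19, so it was not tested and no fold is given. Col18a1 was at 2.86 and 3.14 in the Ip6k1+/+ lines and at 2.88 and 0.30 in the Ip6k1-/- lines (A_51_P191700, chr10:76515820-76515879, minus strand). Only Ip6k1-/- replicate 2 was low, and replicate 1 of that genotype lay between the 2 Ip6k1+/+ lines. The mean difference of -1.40 therefore combined a line at -0.11 from the Ip6k1+/+ mean with a line at -2.70 from it, with a standard error of 0.86 and a 95% interval from -3.66 to 0.85. The other probe (A_52_P261846, chr10:76516065-76516124) showed the same layout, at 1.11 and 1.73 against 1.31 and -1.35. Without Ip6k1-/- replicate 2 the difference was -0.11, and Col18a1 was no longer past the 2-fold cutoff.

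Nidogens are the rod-shaped linkers between laminin and type IV collagen, with Nid1 and Nid2 as the 2 genes of the family. Nid1 was at 4.03 and 3.74 in the Ip6k1+/+ lines and at 2.30 and 3.47 in the Ip6k1-/- lines (A_51_P339943, chr13:13604417-13604476, plus strand). Both Ip6k1-/- lines were below both others, replicate 1 by 1.59 and replicate 2 by 0.41 from the Ip6k1+/+ mean. The means of 3.88 ± 0.20 and 2.89 ± 0.83 (SD, n = 2 each) differed by -0.999, with a standard error of 0.43 and a 95% interval from -2.12 to 0.13. This is 1.998-fold and lies just inside the 2-fold cutoff, which it passed under 4 other ways of processing the arrays. Without Ip6k1-/- replicate 1 the difference was -0.41.

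Nid2 was at 2.15 and 1.30 in the Ip6k1+/+ lines and at 0.94 and 0.72 in the Ip6k1-/- lines (A_51_P315666, chr14:20630490-20630549, plus strand). The genotypes did not overlap, although the Ip6k1+/+ lines stood 0.85 apart. The means of 1.72 ± 0.60 and 0.83 ± 0.15 (SD, n = 2 each) differed by -0.90, with a standard error of 0.35 and a 95% interval from -1.81 to 0.02, or 1.86-fold. Without Ip6k1+/+ replicate 1 the difference was -0.47. In both nidogens, then, all values of 1 genotype lay on 1 side, with unadjusted limma p of 0.0710 for Nid1 and 0.0529 for Nid2.

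**Figure D2:**
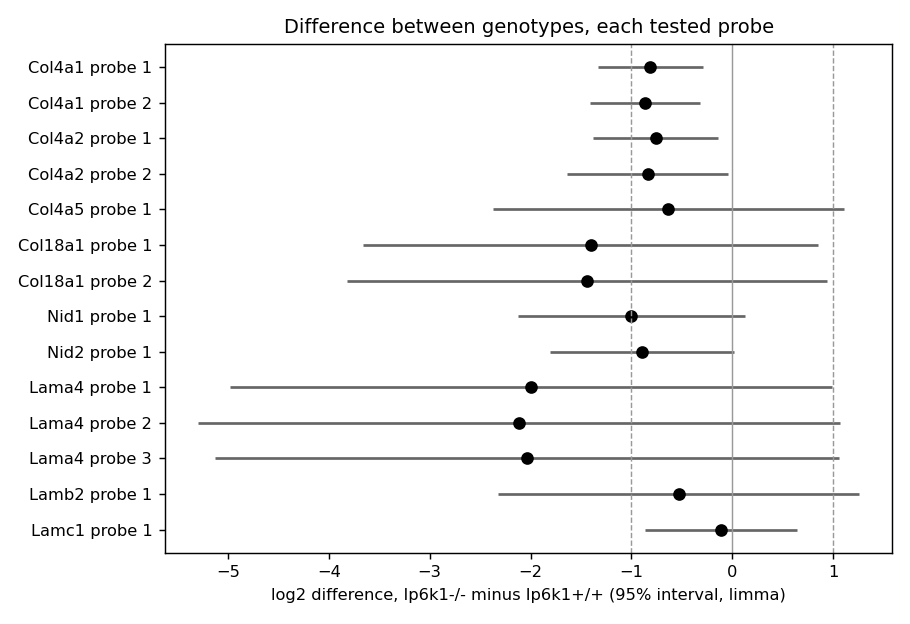
The log2 difference, Ip6k1-/- minus Ip6k1+/+, is plotted for each of the 14 tested probes (points) with its 95% interval from limma (lines), where probe 1 and so on number the probes of a gene and dashed lines mark the 2-fold cutoff. All points lie below 0, and only the intervals of the 4 Col4a1 and Col4a2 probes exclude 0 before adjustment for the number of probes.

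Lama4 encodes the laminin α4 chain, typical of mesenchymal cells and blood vessels, and had the lowest mean difference of the members. It was at 2.13 and -0.31 in the Ip6k1+/+ lines and at 0.13 and -2.31 in the Ip6k1-/- lines (A_51_P212420, chr10:38825794-38825853, plus strand). Replicate 1 was the higher line in each genotype, by 2.44 in both, and Ip6k1-/- replicate 1 lay above Ip6k1+/+ replicate 2, so the genotypes overlapped. The means of 0.91 ± 1.72 and -1.09 ± 1.72 (SD, n = 2 each) differed by -2.00, which is 4.00-fold, with a standard error of 1.14 and a 95% interval from -4.98 to 0.99.

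The difference was -0.78 without Ip6k1+/+ replicate 1 or without Ip6k1-/- replicate 2, and -3.22 without either of the others. The probes A_52_P7554 and A_51_P212427 gave the same order of lines, at 1.02 and -1.39 against -0.93 and -3.68 for the former and 0.28 and -2.07 against -1.60 and -4.25 for the latter, and differences of -2.12 and -2.04. The fourth (A_52_P78714, chr10:38773974-38774033) was undetected in all 4 lines. Lama4 was the only member that passed the threshold under another background correction, as given at the end.

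Of the 3 measured Lama4 probes, 2 overlap and are shown for that reason, with the 29 bases that they share in capitals. They are therefore not independent measurements, while A_51_P212427 lies apart from them at chr10:38814803-38814862.
Lama4 A_51_P212420: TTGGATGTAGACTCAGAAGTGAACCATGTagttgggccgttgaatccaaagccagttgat
Lama4 A_52_P7554: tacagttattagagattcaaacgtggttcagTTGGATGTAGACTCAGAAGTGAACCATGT

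Lamb2 encodes the laminin β2 chain, known from the kidney filter and the neuromuscular junction. It was at 4.57 and 2.72 in the Ip6k1+/+ lines and at 3.54 and 2.68 in the Ip6k1-/- lines (A_51_P248044, chr9:108392189-108392248, plus strand). Replicate 1 of the Ip6k1+/+ lines was the highest, and the other Ip6k1+/+ line was close to the lowest value, so the genotypes overlapped. The difference of -0.53 had a standard error of 0.68 and a 95% interval from -2.32 to 1.26, and was 0.40 without Ip6k1+/+ replicate 1. Lamb2 lies on the chromosome of the deleted gene, 441.3 kb from the nearest Ip6k1 probe in mm9, and a part of that closeness in its values was not tested. The related β1 chain gene Lamb1, listed on the array as Lamb1-1, was at 1.17 and 1.86 against 1.61 and 2.02, with a difference of 0.30.

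Lamc1 encodes the γ1 chain, the partner in most laminin trimers. It was at 4.41 and 3.98 in the Ip6k1+/+ lines and at 4.37 and 3.80 in the Ip6k1-/- lines (A_51_P199354, chr1:155066155-155066213, minus strand). The genotypes overlapped, and the gap between lines of a genotype was larger than that between genotypes. The means of 4.19 ± 0.31 and 4.08 ± 0.40 (SD, n = 2 each) differed by -0.11, with a standard error of 0.29 and a 95% interval from -0.86 to 0.64. The difference was above 0 when either Ip6k1+/+ replicate 1 or Ip6k1-/- replicate 2 was left out, at 0.11 and 0.17, and 33.5% of gene names had a lower one.

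For 6 of the 9 members, namely Col4a5, Col18a1, Nid1, Lama4, Lamb2 and Lamc1, at least 1 pair of lines of the same genotype differed by more than the genotype means did. For Col4a1, Col4a2 and Nid2 the genotype difference was the larger. The share of all gene names with such a gap was not counted, so these numbers describe the members only. The number of members at least 2-fold lower was 2 with all lines, 1 without Ip6k1+/+ replicate 1, 5 without Ip6k1+/+ replicate 2 and 3 without Ip6k1-/- replicate 1. The share of all gene names past that cutoff moved as well, from 4.71% to 7.63%, 10.48% and 6.81% in the same order.

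**Figure D3:**
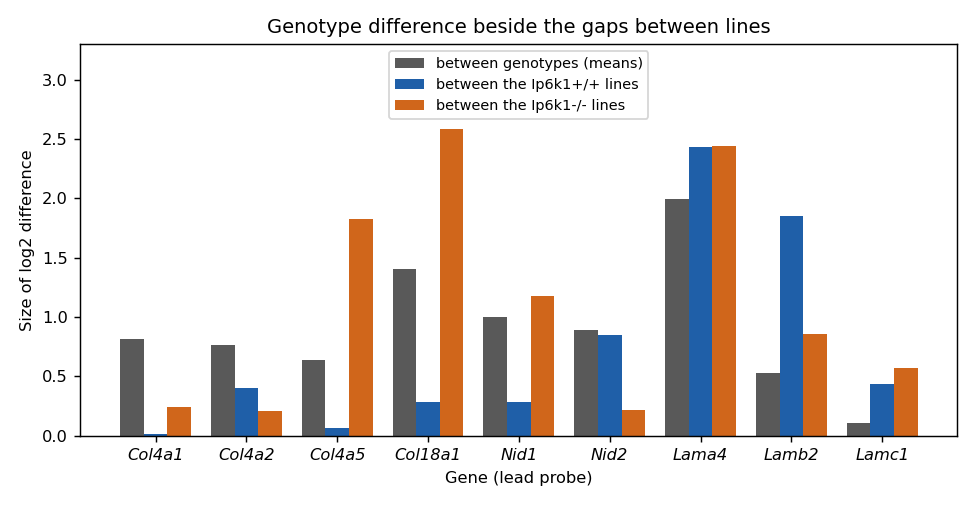
Bars give the size of the log2 difference between the genotype means (grey), between the 2 Ip6k1+/+ lines (blue) and between the 2 Ip6k1-/- lines (orange) for the lead probe of each measured gene. The grey bar is the tallest for Col4a1, Col4a2 and Nid2 only.

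Among all gene names, the difference of Lama4 had 1.21% of gene names below it, that of Col18a1 2.58%, that of Nid1 4.73% and that of Nid2 5.47%. Col4a5 followed with 8.96% and Lamb2 with 10.9%.

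**Figure D4:**
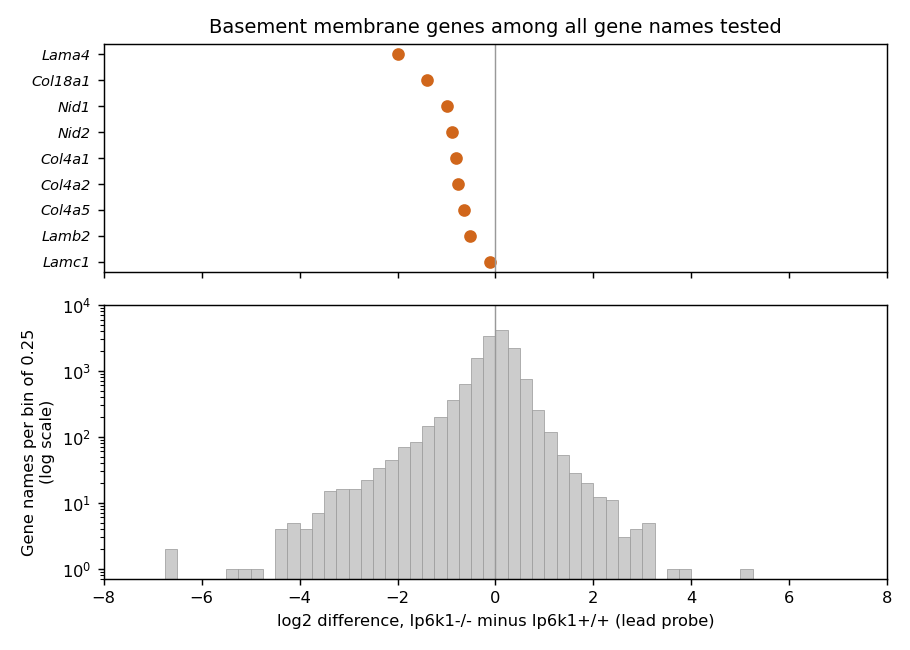
The upper panel gives the log2 difference, Ip6k1-/- minus Ip6k1+/+, of the 9 measured genes, and the lower panel counts all 14237 gene names in bins of 0.25 on a log scale. The 9 genes lie between -2.00 and -0.11, on the left of the median of all gene names at 0.03.

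Other genes of the basement membrane had mean differences on both sides of 0. Of 27 such genes, 16 were tested and 7 of these had a mean difference below 0, against 45.9% of gene names, with a median difference of 0.08. By limma 0 of the 16 passed the adjusted threshold. At an unadjusted limma p under 0.05, 0 were called, against 2.4% of gene names lower and 1.36% higher. By the 2-fold cutoff 0 were higher, against 1.81% of gene names, and 2 were lower, against 4.71%. The 2 were Col4a6 and Smoc1, a calcium-binding matrix protein gene, which was at 1.61 and -2.52 against -3.04 and -6.77, the last not well above background, and was singled out after its values were seen. Npnt, an integrin ligand of basement membranes, was at -3.20 and -4.39 against -4.56 and -4.61. Its difference of -0.79 was the largest in size among the genes measured in all 4 lines, and Smoc2 at 0.54, Sparc at -0.48 and Tinagl1 at -0.40 were also named by the rule. Lama1, Lamc3 and Col4a3 were among 7 undetected genes.

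Receptors that bind these proteins lay on both sides of 0. Of 15 tested of 16, 8 had a mean difference below 0, against 45.9% of gene names, with a median of -0.03. By limma 0 passed the adjusted threshold. At an unadjusted limma p under 0.05, 0 were called, against 2.4% of gene names lower and 1.36% higher. Itga3 and Itga6, integrin chains that bind laminin, differed by 0.59 and 0.54. Ddr1 and Ddr2, collagen receptor kinases, differed by -0.45 and -0.32, and Sdc4, a heparan sulfate receptor, by -0.37. Itga1, a chain of a type IV collagen receptor, was at least 2-fold lower in mean, at -1.32 and -3.72 against -2.23 and -5.55, the last not well above background, and overlapped between genotypes.

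Genes of collagen processing, crosslinking and cleavage, with the protease inhibitors Timp1, Timp2 and Timp3, lay mostly below 0. This held for 14 of 16 tested, against 45.9% of gene names, with a median of -0.24. Some were near 0, such as Timp2 at -0.01 and Mmp14 at -0.02. By the 2-fold cutoff 2 were lower, Mmp2 and Loxl2, against 4.71% of gene names, and 0 were higher, against 1.81%. By limma 0 passed the adjusted threshold. At an unadjusted limma p under 0.05, 1 of 16, P4ha1, was lower, against 2.4% of gene names. P4ha1, a subunit of the prolyl hydroxylase that stabilises the collagen helix, was at 3.25 and 2.99 against 2.60 and 2.53, with a difference of -0.55 and no overlap. P4ha2, the alternative subunit, differed by -0.44 and Plod2, a lysyl hydroxylase, by -0.49. Mmp2, a protease that cleaves type IV collagen, was at 3.61 and 3.05 against 3.24 and -1.04, so that only Ip6k1-/- replicate 2 was low, the line in which Col18a1 was low. Loxl2, a crosslinking enzyme of type IV collagen, was at 3.23 and 5.16 against 2.59 and 3.74, and overlapped.

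The genes whose values over the 4 lines were most like those of Col4a1 and Col4a2 were not collagens. For this comparison, each gene was centred on its own mean, and the distance to the mean centred pattern of the 2 genes, 0.50, 0.29, -0.40 and -0.38, was taken over the 4 arrays for the 13226 gene names well above background on all of them. The smallest distances belonged to Tmem175 at 0.0559, Dync2li1 at 0.0672, Ptprj at 0.0769, Mzf1 at 0.0773 and Ech1 at 0.0865. Col4a1 itself lay at 0.211 from the shared pattern, Nid2 at 0.494 and Lama4 at 2.64. With 4 arrays, a short distance describes these lines only.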

How the data were processed

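RNA of 4 MEF lines was profiled, 2 of each genotype. The authors extracted the spot intensity with Agilent Feature Extraction 10.5.1.1 and deposited it on a linear scale, already corrected for background, with mm9 coordinates of each probe. They also deposited log2 values that GeneSpring had shifted to the 75th percentile, and these matched the values used here, apart from an offset for each array, to a median of 0.0025.

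The deposited processed intensity was put on a log2 scale and centred on the 75th percentile of the 43379 non-control spots of its array. Spots with an outlier flag (96 to 133 per array) were left out, and spots of 1 probe were averaged. The software's flag for a signal well above background had to be set in both lines of 1 genotype or more, which kept 21572 of 41174 probes and 14 of the 17 member probes. Each of 14237 gene names was counted by its lead probe, the brightest tested probe not saturated on all arrays of a genotype. The genotype effect was fitted per probe in limma 3.58.1 (R 4.3.3), by lmFit and eBayes with a trended variance, and p-values of all tested probes were adjusted together by Benjamini-Hochberg. The p-values rest on the spread between 2 lines per genotype, which eBayes draws toward a variance trend over all tested probes. With so few arrays the intervals are wide.

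Of 17 member probe accessions, 15 matched RefSeq, all under the same symbol. RefSeq sequences came from GRCm38.p6, whose promoter table held 7 of the 10 genes, and probe sequences from the array files. The members and gene lists were chosen with earlier results of these data known. Genes named beside the members were, per list, up to 5 with the largest mean difference among those measured in all lines, with Col4a6, Lamb1 and the 5 nearest patterns, and Itga1, Xist and Smoc1 were added after their values were seen. Some genes of the lists are counted but not reported here by name. The alternatives were other background corrections, normalizations, filters, probe rules and tests, the replicate number as a block, and the omission of each line.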

Additional observations from a re-analysis of the deposited data

How the results depend on the processing

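Of 144 differences of single members under 16 other settings, 5 had the opposite sign and 1 passed the threshold. With normexp background correction, 1 member passed the limma threshold, Lama4 at -1.76 with an adjusted p of 0.000193, and Lamc1 was at 0.14. That fit called 149 gene names against 1, and with spots below their local background left out before it, 0 were called and the adjusted p of Lama4 was 0.998. Over the remaining settings the adjusted p of Lama4 lay between 0.191 and 0.99992. Leaving out each line in turn moved Col4a5 from -1.55 to 0.28, Lamb2 from -1.45 to 0.40 and Lamc1 from -0.40 to 0.17. Above 0 were Lamb2 at 0.40 and Lamc1 at 0.11 without Ip6k1+/+ replicate 1, Col4a5 at 0.28 without Ip6k1-/- replicate 1, and Lamc1 at 0.17 without Ip6k1-/- replicate 2. Over the same settings, the members at least 2-fold lower numbered 1 to 5 beside 5.01% to 10.48% of gene names, the median difference lay between -1.14 and -0.60, and 0 members passed the threshold. Nid1 crossed the 2-fold cutoff in 4 settings that kept all lines, which gave 3 members at least 2-fold lower, and without replicate 2 of either genotype.

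The labels do not say that replicate numbers pair the lines, and the difference between replicates 1 and 2 correlated at 0.48 between genotypes over the probes tested. With the replicate block, 0 members passed the threshold and the smallest adjusted p was 0.191, for Lama4. At an unadjusted limma p under 0.05, 5 members were lower (Col4a1, Col4a2, Nid1, Nid2 and Lama4) against 2 without the block, as were 803 of 14237 gene names against 342. The block changed no call at the adjusted threshold. The paper's methods name a t-test for 2 groups, but for the arrays they give average fold changes. Used here per probe, a t-test gave 1 member and 560 of 14237 gene names at an unadjusted p under 0.05. After Benjamini-Hochberg adjustment it gave 0 members. Over all gene names, those at least 2-fold lower and higher numbered 671 and 258, against 1205 and 881 with no filter on dim probes and 379 and 168 with a stricter one. Dim probes such as Col15a1 have only a bound at this signal over background.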

Other observations

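Other matrix genes differed between lines of the same genotype far more than between genotypes. Lama5, the laminin α5 chain, was at 3.03 and 0.38 in the Ip6k1+/+ lines and at 3.39 and 0.72 in the Ip6k1-/- lines. Smoc2, a relative of Smoc1, was at 3.65 and -1.72 against 4.35 and -1.33, and Cspg4, a proteoglycan of pericytes, at 3.95 and 1.53 against 4.18 and 1.69. In each, replicate 1 of both genotypes was the higher line. Hspg2, the core protein of perlecan, varied less, at 5.48 and 5.02 against 5.04 and 5.18, as did Agrn, the core protein of agrin, at 6.30 and 6.08 against 6.29 and 6.35. All 5 were picked with their values known.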
